A study of Mus musculus with 22 samples.

Results

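The genes described here are 8 genes of the red cell lineage: the transcription factors Klf1 and Gata1, the membrane proteins Slc4a1, Epb42, Rhag, Kel and Ermap, and the membrane skeleton protein Sptb. They are 8 of 48709 gene rows in the count tables of both experiments, were found by their symbols, and were chosen by measured values of these same libraries. Which comparison the choice rests on is not stated. The difference between LIN9 KO and LIN9 wt in the first experiment and, for Sptb, that between Sav1 KO and Sav1 wt with LIN9 wt were treated as the values used. No p-value is printed for these, and counts of calls in them are a description. If the choice also drew on the LIN9 effect in the second experiment, the p-values given there are no independent test either.

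The study asked how LIN9, a subunit of the MuvB complex that controls cell cycle genes, and SAV1, a scaffold of the Hippo kinase cascade that restrains the coactivator YAP, act on the developing mouse heart. RNA was sequenced from heart ventricles of embryos at E13.5 in 18 libraries, 3 in each of 6 groups, and every group carried Nkx2.5-Cre, a Cre recombinase made in cardiac precursor cells. In the first experiment LIN9 wt was set against LIN9 KO, which has both copies of Lin9 floxed. LIN9 wt is labelled wild-type and, in the study's results and figure captions, has 1 floxed and 1 intact copy of Lin9. In the second experiment Lin9 and Sav1 were combined, which gave the control (LIN9 wt, Sav1 wt), LIN9 KO with Sav1 wt, Sav1 KO with LIN9 wt, and the double knockout. Cells of the ventricle that never made the Cre keep the floxed genes intact. The study treats the LIN9 comparison of each experiment as a biological replicate done in triplicate, and does not say whether 1 library is 1 embryo or a pool. P-values therefore measure only the spread between these libraries, which may be technical.

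Red cells are made from progenitors in which the zinc finger factors GATA1 and KLF1 switch on the genes of haemoglobin synthesis and of the red cell membrane. Slc4a1 encodes band 3, the anion exchanger of that membrane, to which protein 4.2 (Epb42) binds. Band 3 and protein 4.2 are tied through ankyrin to a spectrin mesh under the membrane, and Sptb encodes the beta spectrin of that mesh. Beta spectrin of this gene is also made in muscle and brain. Rhag encodes the Rh-associated glycoprotein, Kel the Kell blood group protein, and Ermap an erythroid membrane-associated protein of the immunoglobulin superfamily.

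The depth was 9485599 to 9615274 counts per library in the first experiment and 2770741 to 2999877 in the second. Levels are therefore given as CPM, the count relative to the TMM-scaled library size, and low counts are printed as they are. Over the whole gene, which includes the part that Cre does not delete, Lin9 was at 21.4 to 29.8 CPM in LIN9 wt and 19.2 to 21.4 CPM in LIN9 KO of the first experiment, 23.2 to 29.2 in the control and 13.1 to 17.9 in LIN9 KO of the second, and 19.2 to 31.4 in Sav1 KO and 18.5 to 26.0 in the double knockout. Sav1 was at 54.5 to 61.9 CPM in the control and 47.3 to 51.9 in LIN9 KO, and at 36.1 to 43.0 in Sav1 KO and 40.5 to 43.9 in the double knockout. Of 9 ventricular cardiomyocyte markers, 8 were measured above 0 (Actc1, whose exons lie under another gene, was at 0), and their summed level was 19784 to 24136 CPM in the LIN9 wt groups and 8999.7 to 11920.1 CPM in the LIN9 KO groups.

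The stretches before the start of 5 of the genes are shown because GATA1 and KLF1 are the regulators among the 8 genes, and Sptb is shown beside 4 genes that hold a match. GATA factors bind short sites with a GATA core, and AGATAA and TGATAA were searched on both strands over the 250 bases before the annotated start (RefSeq, GRCm38.p6). A window was at hand for 7 of the 8 genes, and Slc4a1 has none in the table used. At least 1 of these words lay in the windows of 5 of the 7, namely Epb42, Klf1, Rhag, Kel and Ermap, and in 16.6% of 32851 windows of all genes. AGATAA alone was in 9.99% of all windows and TGATAA alone in 7.94%. The windows of Gata1 and Sptb held neither word, which says only that these letters are not in them. The GC content of the window was 65.2% for Sptb and 39.2% to 54.0% for the other 6, beside a median of 52.4% over all windows. A match is a description of the sequence and not a bound site.

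The sequences read 5′ to 3′ toward the gene and end where the first annotated transcript begins, with a match of either word in capitals, as it or its reverse complement (TTATCT or TTATCA) stands on the gene's strand. They are Klf1 (chr8:84901732-84901927, plus strand), Rhag (chr17:40810899-40811125, plus strand), Kel (chr6:41704340-41704575, minus strand), Ermap (chr4:119190012-119190245, minus strand) and Sptb (chr12:76710548-76710797, minus strand). A further TGATAA of Kel, from base -19 to base -14, runs past the end of the stretch shown.
Klf1: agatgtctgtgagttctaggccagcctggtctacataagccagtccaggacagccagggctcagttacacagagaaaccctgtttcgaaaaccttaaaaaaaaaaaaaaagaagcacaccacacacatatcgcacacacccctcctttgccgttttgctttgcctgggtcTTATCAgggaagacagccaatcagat
Rhag: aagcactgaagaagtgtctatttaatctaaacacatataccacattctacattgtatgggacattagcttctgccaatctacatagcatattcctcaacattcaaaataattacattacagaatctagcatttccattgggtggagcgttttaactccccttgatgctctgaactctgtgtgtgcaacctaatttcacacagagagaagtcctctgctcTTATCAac
Kel: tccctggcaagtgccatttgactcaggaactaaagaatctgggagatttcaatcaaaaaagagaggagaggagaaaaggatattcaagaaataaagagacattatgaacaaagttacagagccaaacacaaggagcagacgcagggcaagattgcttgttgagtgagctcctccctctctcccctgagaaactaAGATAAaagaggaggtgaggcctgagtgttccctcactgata
Ermap: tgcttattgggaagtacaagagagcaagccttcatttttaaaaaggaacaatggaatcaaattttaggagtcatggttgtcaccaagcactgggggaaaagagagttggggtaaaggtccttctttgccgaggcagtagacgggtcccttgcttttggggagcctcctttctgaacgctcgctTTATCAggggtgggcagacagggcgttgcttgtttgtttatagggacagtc
Sptb: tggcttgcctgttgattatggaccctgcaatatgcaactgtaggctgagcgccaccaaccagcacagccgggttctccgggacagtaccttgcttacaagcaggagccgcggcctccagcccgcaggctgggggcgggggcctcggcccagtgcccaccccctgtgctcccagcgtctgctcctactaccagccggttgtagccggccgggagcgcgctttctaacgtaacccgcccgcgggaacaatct

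Relative to the RefSeq start, the match of Klf1 began at base -80, that of Ermap at base -67, that of Rhag at base -31, the first of Kel at base -56 and that of Epb42 at base -226. The 250 bases of Sptb shown above hold none.

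**Figure D1:**
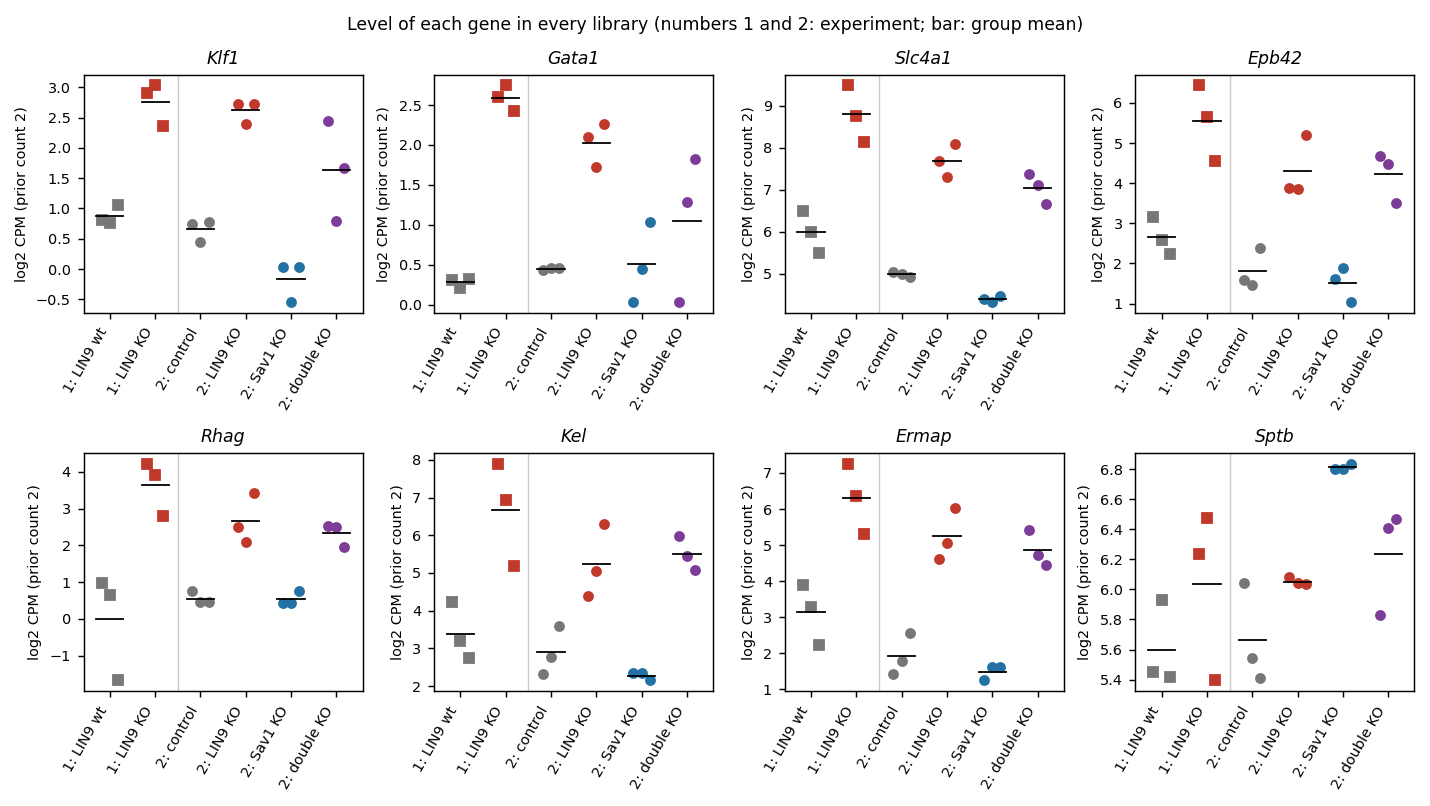
Level of each gene in all 18 libraries as log2 CPM with a prior count of 2, with squares for the first experiment, circles for the second, colours for the 6 groups and a bar at the mean of 3 libraries. All genes but Sptb sit higher in the LIN9 KO groups, except for Gata1 and Klf1 in the double knockout. Gata1 overlaps there with the LIN9 wt groups. Klf1 in double knockout replicate 2 (0.80) lies below LIN9 wt replicates 1 and 3 of the first experiment (0.81 and 1.06). Sptb is highest in the 3 Sav1 KO libraries.

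Both regulators were at the lower end of the counts. With Sav1 intact both were higher in LIN9 KO, and in the double knockout Klf1 passed the test against Sav1 KO but not against the control, and Gata1 passed against neither. Klf1 (ENSMUSG00000054191, chr8:84901928-84905291, plus strand), an activator of beta-like globin genes, had 15, 14 and 18 counts in the LIN9 wt libraries of the first experiment (1.54, 1.48 and 1.87 CPM) and 67, 76 and 48 in LIN9 KO (7.26, 7.97 and 4.94 CPM). The lowest LIN9 KO library was above the highest LIN9 wt library, and the fitted difference was 2.03 ± 0.26 on the log2 scale (SE, here and in the other fitted differences). In the second experiment the control had 3, 2 and 3 counts (0.997, 0.685 and 1.04 CPM) and LIN9 KO 18, 14 and 16 (5.91, 4.59 and 5.96 CPM), again without overlap. This difference was 2.54 ± 0.51, or 5.81-fold (edgeR adjusted p = 4.30e-04).

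In the Sav1 KO libraries Klf1 was at the limit of the depth, with 1, 0 and 1 counts, a mean that would not have passed the filter on low counts by itself. The double knockout had 14, 3 and 7 counts (4.77, 1.06 and 2.49 CPM), all above Sav1 KO. With 24 counts in the double knockout and 2 in Sav1 KO, the ratio of the groups per count sequenced was 12.4, with an exact 95% counting interval of 3.09 to 109, and the edgeR adjusted p was 0.0015. Against the control, the double knockout had a higher CPM in all 3 libraries, by 1.58 ± 0.58, which missed the threshold (edgeR adjusted p = 0.053). The 3 counts of double knockout replicate 2 equal those of control replicates 1 and 3, so these groups are apart only through the scaling to library size (1.06 against 0.997 and 1.04 CPM). Double knockout replicates 1 and 2, with 14 and 3 counts, decided this value. It was 0.89 ± 0.66 without replicate 1 (edgeR adjusted p = 0.38) and 1.93 ± 0.56 without replicate 2 (edgeR adjusted p = 0.020). Leaving out any of the other 4 libraries gave edgeR adjusted p of 0.080 to 0.15, and DESeq2 gave an adjusted p of 0.13. It passed narrowly when low counts were not filtered and when replicate numbers entered as a block (edgeR adjusted p = 0.049 and 0.044).

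Gata1 (ENSMUSG00000031162, chrX:7959260-7978071, minus strand), the factor that erythroid and megakaryocyte precursors need to mature, had 10, 9 and 10 counts in LIN9 wt of the first experiment (1.03, 0.948 and 1.04 CPM) and 54, 62 and 50 in LIN9 KO (5.85, 6.50 and 5.14 CPM), a difference of 2.52 ± 0.26. Each control library of the second experiment had 2 counts (0.664, 0.685 and 0.691 CPM), and LIN9 KO had 11, 8 and 11 (3.61, 2.62 and 4.10 CPM). The groups were apart and the difference was 2.26 ± 0.60, or 4.79-fold (edgeR adjusted p = 0.0063). The double knockout, with 1, 5 and 8 counts, overlapped with Sav1 KO, with 1, 2 and 4, and with the control, which none of the other 6 genes beside Sptb did. Its difference was 1.01 ± 0.68 against Sav1 KO (edgeR adjusted p = 0.31) and 1.21 ± 0.70 against the control (edgeR adjusted p = 0.24), neither of which passed. With counts this low 1 library moved both values: leaving out each in turn gave 0.36 (without double knockout replicate 3) to 1.61 (without Sav1 KO replicate 3) against Sav1 KO, and 0.56 (without double knockout replicate 3) to 1.66 (without double knockout replicate 1) against the control, and none passed. Double knockout replicate 1, with a Gata1 count of 1, had the highest CPM of Slc4a1, Epb42, Rhag, Kel, Ermap and Klf1 in its group.

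Slc4a1 had the highest level of the 7 genes other than Sptb and, in the second experiment, the smallest errors of the 7. Slc4a1 (ENSMUSG00000006574, chr11:102348824-102366203, minus strand), the chloride and bicarbonate exchanger that lets red cells carry carbon dioxide, was at 90.2, 63.3 and 44.5 CPM in LIN9 wt and 719, 433 and 284 CPM in LIN9 KO of the first experiment, a difference of 2.86 ± 0.47. In the second it was at 32.2, 31.2 and 29.4 CPM in the control and 206, 157 and 271 CPM in LIN9 KO. The lowest LIN9 KO library was above all control libraries, by 2.77 ± 0.22 or 6.82-fold over the groups (edgeR adjusted p = 3.37e-06). Sav1 KO had 20.2, 19.2 and 21.5 CPM, below every control library, and the double knockout had 167, 137 and 101 CPM. The double knockout was higher than Sav1 KO by 2.73 ± 0.23 (edgeR adjusted p = 6.17e-06) and higher than the control by 2.12 ± 0.22 (edgeR adjusted p = 3.86e-05).

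Epb42 (ENSMUSG00000023216, chr2:121017891-121037072, minus strand), the band 3 partner whose loss in people gives spherical red cells, was at 8.75, 5.80 and 4.47 CPM in LIN9 wt and 86.4, 49.8 and 23.2 CPM in LIN9 KO of the first experiment, a difference of 3.06 ± 0.63. In the second experiment the control was at 2.33, 2.05 and 4.49 CPM and LIN9 KO at 14.1, 13.8 and 35.8 CPM, without overlap and with LIN9 KO replicate 3 far above the other two. The difference of 2.81 ± 0.56 passed the test (edgeR adjusted p = 0.0048). Sav1 KO was at 2.35, 3.04 and 1.36 CPM, overlapping with the control, and the double knockout at 24.9, 21.5 and 10.7 CPM. Epb42 rose by 3.05 ± 0.60 over Sav1 KO (edgeR adjusted p = 0.0044) and by 2.67 ± 0.57 over the control (edgeR adjusted p = 0.0081), the latter call being lost without control replicate 1 (2.53 ± 0.72, edgeR adjusted p = 0.0502).

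Rhag (ENSMUSG00000023926, chr17:40811126-40840754, plus strand), which forms the Rh complex with Rhd, had 17, 13 and 1 counts in LIN9 wt and 170, 142 and 65 in LIN9 KO of the first experiment (1.75, 1.37 and 0.104 CPM against 18.4, 14.9 and 6.68 CPM). LIN9 wt replicate 3, with 1 count, stood below the other two, and the fitted difference was 3.61 ± 0.66. In the second experiment the control had 3, 2 and 2 counts and LIN9 KO 15, 11 and 27, a difference of 2.87 ± 0.50 (edgeR adjusted p = 9.27e-05). Sav1 KO had 2, 2 and 3 counts, level with the control at this depth, and the double knockout 15, 14 and 9. The double knockout was higher by 2.42 ± 0.54 than Sav1 KO and by 2.42 ± 0.54 than the control (edgeR adjusted p = 0.0013 and 0.0016).

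Kel (ENSMUSG00000029866, chr6:41686330-41704339, minus strand), an endopeptidase that carries the Kell blood group and is linked to Xk, was at 18.4, 8.96 and 6.44 CPM in LIN9 wt and 239, 122 and 36.1 CPM in LIN9 KO of the first experiment. The groups were apart, and the difference of 3.55 ± 0.92 had the largest error of the 8. In the second experiment the control was at 4.32, 6.16 and 11.4 CPM and LIN9 KO at 20.4, 32.4 and 77.9 CPM. The difference of 2.56 ± 0.61 passed (edgeR adjusted p = 0.017), and the call was lost without control replicate 1 (2.27 ± 0.72, edgeR adjusted p = 0.068) or replicate 2 (2.43 ± 0.75, edgeR adjusted p = 0.067) and with the 6 libraries fitted alone (2.53 ± 0.75, edgeR adjusted p = 0.10). Sav1 KO was at 4.37, 4.39 and 3.75 CPM and the double knockout at 62.7, 43.3 and 33.4 CPM. Kel rose by 3.47 ± 0.67 over Sav1 KO (edgeR adjusted p = 0.0061) and by 2.67 ± 0.60 over the control (edgeR adjusted p = 0.015), the latter lost without control replicate 1 or 2 (edgeR adjusted p = 0.067 and 0.057).

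Ermap (ENSMUSG00000028644, chr4:119175457-119190011, minus strand), which carries the Scianna blood group, had the largest difference of the 8 genes in each of the comparisons of the second experiment that delete LIN9. It was at 14.5, 9.59 and 4.47 CPM in LIN9 wt and 153, 82.0 and 39.5 CPM in LIN9 KO of the first experiment, a difference of 3.26 ± 0.73. In the second, 1.99, 2.74 and 5.18 CPM in the control stood against 24.0, 32.8 and 65.2 CPM in LIN9 KO, or 12.1-fold (3.60 ± 0.55, edgeR adjusted p = 0.0015). Sav1 KO was at 1.68, 2.36 and 2.39 CPM and the double knockout at 42.2, 25.7 and 21.0 CPM, without overlap. The double knockout was higher by 3.77 ± 0.62 than Sav1 KO (edgeR adjusted p = 0.0022) and by 3.16 ± 0.58 than the control (edgeR adjusted p = 0.0045).

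**Figure D2:**
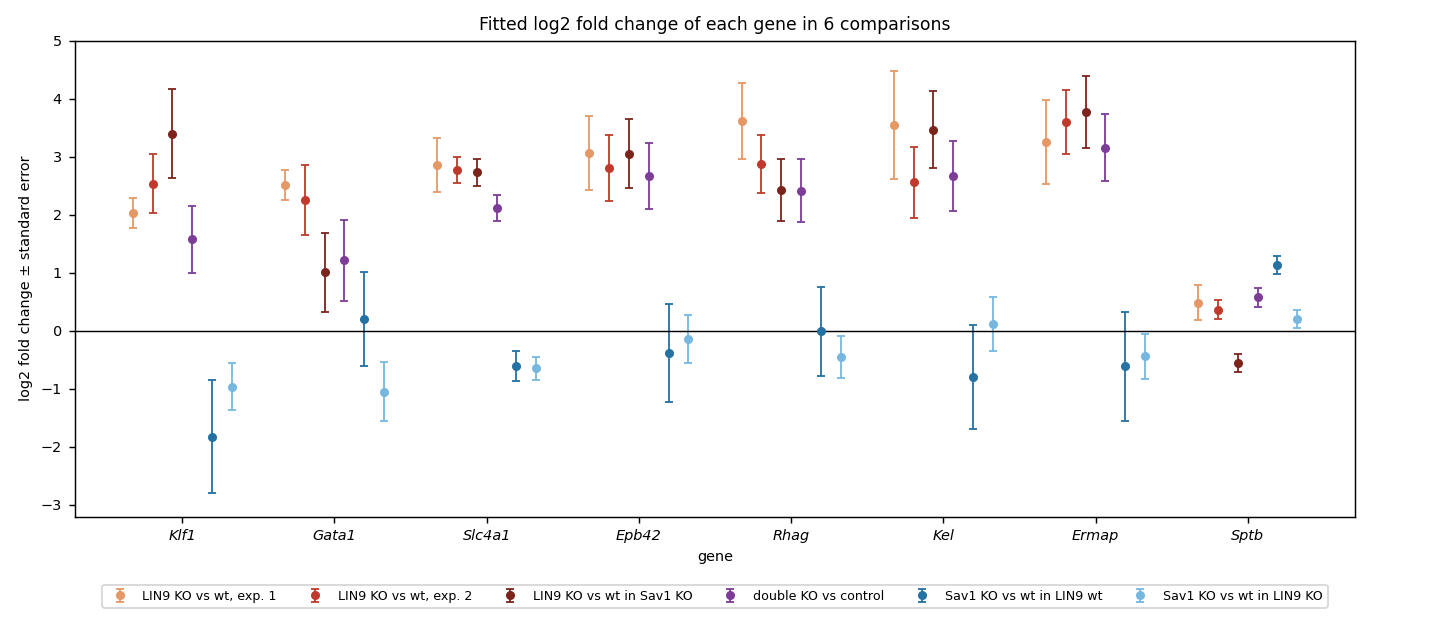
Fitted log2 fold change of each gene, with its standard error, in 6 comparisons (colours), over 3 against 3 libraries each. In the comparisons that delete LIN9, the 7 genes at the left lie between 1.01 and 3.77 and Sptb between -0.56 and 0.57.

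By count, all 7 genes other than Sptb passed the test in LIN9 KO against the control of the second experiment, and all 7 were higher, with no overlap of the groups. Over all 17675 genes tested there, 23.2% passed, 12.7% as higher and 10.5% as lower, and 18.3% were higher and 16.8% lower without overlap. The median difference of the 7 was 2.77, against 0.01 over all genes. In the double knockout against Sav1 KO, 6 of the 7 passed and were higher without overlap, beside 23.4% of all genes that passed, 11.8% as higher and 11.6% as lower, and 21.9% that were higher and 19.2% lower without overlap, and the median of the 7 was 3.05. In the double knockout against the control 5 of the 7 passed and 6 were higher without overlap in CPM, Klf1 among them through the scaling of tied counts, with a median of 2.42, beside 20.6% of all genes that passed, 10.7% as higher and 9.96% as lower, and 19.8% that were higher and 17.6% lower without overlap. The last comparison shares its libraries with the other two, so the 3 counts are not separate findings. In the first experiment 6 of the 7 passed and all 7 were higher without overlap, beside 20.9% of all 19752 genes that passed, 11.1% as higher and 9.78% as lower, and 18.4% higher and 18.1% lower without overlap, and nothing is read from this count, since this comparison was treated as the one the genes were chosen by. Without LIN9 KO replicate 2, the count was 2 of the 8 genes. The difference between the LIN9 effects of the 2 experiments ran from -0.99 ± 1.21 (Kel) to 0.53 ± 0.62 (Klf1), within 1 SE of 0 for all 8 genes.

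Deleting Sav1 while LIN9 was also deleted moved no gene of the 8 past the threshold. In LIN9 KO against the double knockout, the groups of all 8 genes overlapped, where 7.2% of all genes were higher and 7.87% lower without overlap. The differences of the double knockout from LIN9 KO were -0.96 ± 0.41 for Klf1 (edgeR adjusted p = 0.35), -1.05 ± 0.51 for Gata1 (edgeR adjusted p = 0.41), -0.65 ± 0.19 for Slc4a1 (edgeR adjusted p = 0.22), and between -0.46 and 0.12 for Epb42, Rhag, Kel and Ermap. Of the 8 genes 0 passed with edgeR, 0 with DESeq2 and 3 (Klf1, Gata1 and Slc4a1) had an unadjusted p under 0.05, and 0.0113% of all genes passed. Without the filter on low counts Slc4a1 passed (-0.64 ± 0.11, edgeR adjusted p = 2.17e-05). With LIN9 intact, the values are given without a test. Slc4a1 was at -0.61 ± 0.26. Epb42, Rhag, Kel, Gata1 and Ermap were between -0.79 and 0.20, each within 1 SE of 0. Epb42, Rhag and Gata1 changed sign in some fits that left out 1 library, and Kel and Ermap stayed below 0. For Klf1 the ratio of Sav1 KO to control was 0.247 from 2 and 8 counts, with an exact 95% counting interval of 0.0255 to 1.24. Slc4a1 and Klf1 were lower and Sptb higher in all 3 Sav1 KO libraries than in the control, as were 6.14% and 5.97% of all genes, and nothing is read from it. Counting intervals cover counting error only.

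Levels of the genes were compared with each other as CPM per kilobase of exon. In the control of the second experiment Slc4a1 was highest at 6.32 ± 0.294 (mean ± SD, n = 3 here and below), followed by Sptb at 4.19 ± 1.02 and Kel at 2.63 ± 1.33, whose libraries overlapped with those of Sptb. Ermap, Klf1, Epb42 and Rhag followed, between 0.624 and 0.338, each overlapping with the next, and Gata1 was lowest at 0.279 ± 0.00575. In LIN9 KO the order was Slc4a1 (43.2 ± 11.7), Kel (15.7 ± 10.9), Ermap (7.67 ± 4.10), Sptb (5.41 ± 0.0942), Epb42, Klf1, Rhag and Gata1 (1.41 ± 0.308), and every pair of neighbours but Slc4a1 and Kel overlapped. In Sav1 KO Sptb stood first at 9.20 ± 0.129, above Slc4a1 at 4.15 ± 0.230 and then Kel, without overlap between these. The other 5 overlapped with their neighbours, from Epb42 at 0.416 ± 0.155 to Klf1 at 0.148 ± 0.128. In the double knockout Slc4a1 (27.6 ± 6.71) and Kel (16.8 ± 5.37) again led, above Sptb (6.26 ± 1.42), and Gata1 closed the order at 0.676 ± 0.515.

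In the first experiment Slc4a1 led in LIN9 wt without overlap, Kel (4.07 ± 2.28) and Sptb (4.03 ± 0.841) overlapped, and Gata1 was lowest at 0.413 ± 0.0204. In LIN9 KO Sptb, at 5.64 ± 1.99, came after Slc4a1 (97.8 ± 45.2), Kel (47.7 ± 36.6), Ermap (17.3 ± 10.8), Epb42 (9.81 ± 5.85) and Rhag (5.70 ± 2.58), with overlap from each to the next.

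With Sav1 intact, Sptb overlapped between LIN9 KO and LIN9 wt in both experiments, and it is described apart from the other 7 genes. Sptb (ENSMUSG00000021061, chr12:76580488-76710547, minus strand) was at 43.5, 60.7 and 42.6 CPM in LIN9 wt and 75.0, 88.8 and 41.8 CPM in LIN9 KO of the first experiment, and LIN9 KO replicate 3 lay below all LIN9 wt libraries (0.49 ± 0.30, and 0.26 to 0.74 when 1 library was left out). In the second experiment it was at 65.1, 45.9 and 41.8 CPM in the control and 67.0, 65.2 and 64.8 CPM in LIN9 KO. The LIN9 KO libraries lay close together, and the highest control library was between them (0.36 ± 0.16). Leaving out 1 library gave 0.24 to 0.56, the highest without control replicate 1, and with that library left out or with no filter on low counts Sptb passed as higher. In Sav1 KO it was at 111, 111 and 114 CPM, above each of the other 15 libraries, and in the double knockout at 56.2, 84.1 and 87.8 CPM. Sav1 KO was above the control by 1.13 ± 0.15, which was treated as the value Sptb was chosen by.

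Of the comparisons of Sptb in the second experiment, the difference between the double knockout and LIN9 KO is the 1 that shares no library with that comparison. It was 0.21 ± 0.15 (edgeR adjusted p = 0.63), with 2 double knockout libraries above and 1 below all 3 LIN9 KO libraries. The others share the control or the Sav1 KO libraries and are given as a description, with no p-value. The double knockout was below Sav1 KO in all 3 libraries, with a difference of -0.56 ± 0.15, and differed from the control by 0.57 ± 0.16 with 1 library within the control's range. By the call rule both passed, and nothing is read from these calls, since the libraries are shared. The difference from the control no longer passed without replicate 2 or 3 of either group (0.43 to 0.48) or with the 6 libraries fitted alone (0.55). The effect of Sav1 with LIN9 deleted less that with LIN9 intact was -0.92 ± 0.22, against -1.25 ± 0.98 to 0.91 ± 1.01 for the other 7 genes. By the call rule, 1 of the 8 genes (Sptb) passed in Sav1 KO against the control, beside 0.017% of all genes, 0.0113% as higher and 0.00566% as lower, and nothing is read from it. In 5 of the 6 fits that leave out 1 library, all but that without control replicate 1, Sptb did not pass. Nor did it in the fit with replicate numbers as a block. The difference ran from 1.01 to 1.35 over all 6 fits, that which passed included, and was 1.13 with the block.

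The distance of Sptb from the other genes was taken in each library as its log2 CPM less the mean log2 CPM of the other 7. It was 2.61, 3.54 and 3.65 in LIN9 wt and 0.40, 1.13 and 1.00 in LIN9 KO of the first experiment, 3.27 ± 0.57 and 0.85 ± 0.39 as mean ± SD (n = 3). In the second it was 4.28, 3.78 and 3.25 in the control, 2.09, 2.11 and 1.17 in LIN9 KO, 5.36, 5.30 and 5.25 in Sav1 KO and 1.76, 2.64 and 2.88 in the double knockout. The distance was widest in Sav1 KO (5.30 ± 0.06), then the control (3.77 ± 0.52), and narrower in the double knockout (2.43 ± 0.59) and LIN9 KO (1.79 ± 0.54), whose libraries overlapped. This order draws on the values the genes were treated as chosen by, the rise of Sptb in these Sav1 KO libraries among them, so nothing is read from it. The distance is not divided by length and serves to compare libraries, not genes. Per kilobase, Sptb was below 5 of the other 7 genes by mean in LIN9 KO of the first experiment and below 3 in that of the second. Across the 18 libraries, after the mean of each experiment was taken out, Pearson's r of Sptb with the mean of the other 7 was 0.08. Each of the other 7 genes had an r of 0.78 (Gata1) to 0.99 (Slc4a1) with the mean of the remaining 6. These r values are descriptions over libraries that share their groups and include those the genes were treated as chosen by.

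**Figure D3:**
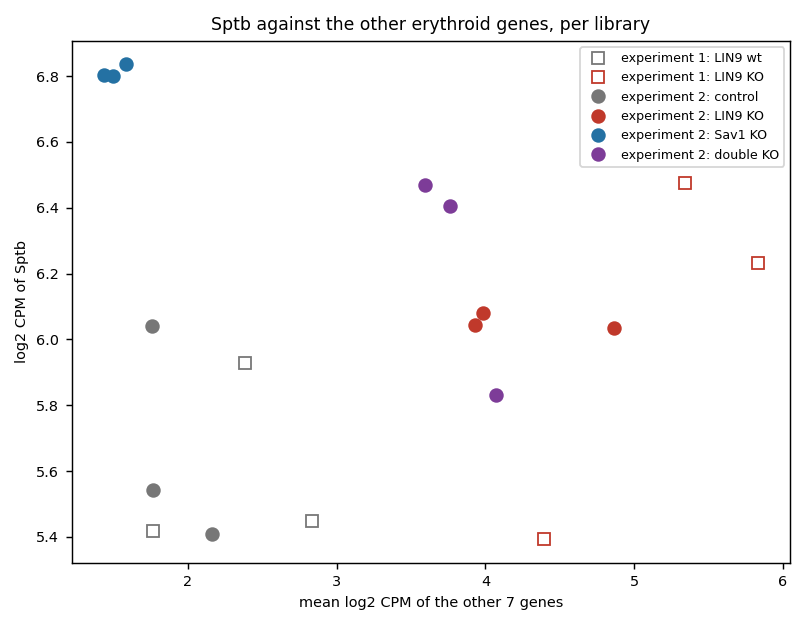
Log2 CPM of Sptb (vertical) against the mean log2 CPM of the other 7 genes (horizontal), 1 point per library, open squares for the first and circles for the second experiment. The 3 Sav1 KO libraries sit at the upper left, at 6.80 to 6.84 for Sptb, and the LIN9 KO libraries of both experiments spread to the right.

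Sptb and Sav1 lie on the same chromosome, 6.59 Mb apart, with 53 annotated protein-coding genes between them. Of these, 45 were tested in Sav1 KO against the control, and 20 had a positive difference, with a median of -0.06 and a range of -2.27 to 1.87, which includes the value of Sptb. By the call rule 0 of the 45 passed. Of the 5 protein-coding genes on each side of Sptb, 7 were tested and 0 passed, with differences from -0.30 ± 0.42 (Ppp1r36) to 0.43 ± 0.14 (Fntb). The nearest tested gene before Sptb, Plekhg3, was at 0.20 ± 0.12. Churc1, Gpx2 and Rab15 did not pass the filter on low counts.

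**Figure D4:**
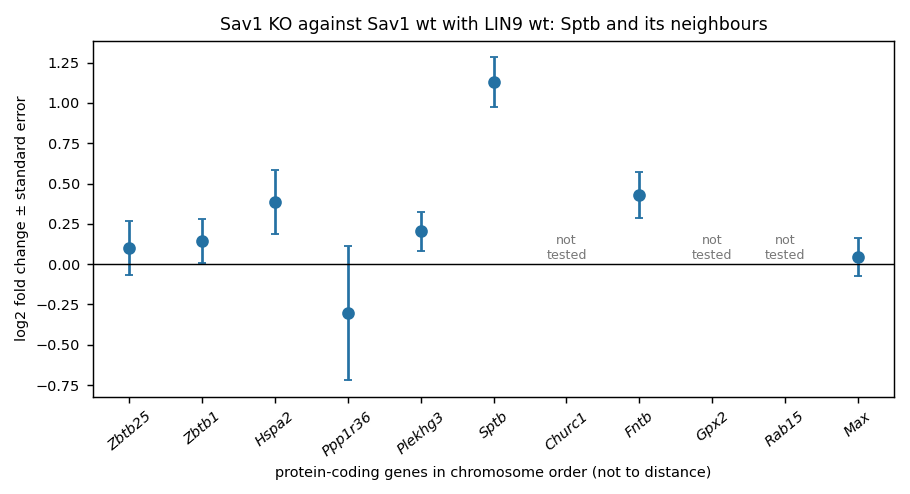
Log2 fold change with its standard error of Sptb and the 5 protein-coding genes on each side, in chromosome order, in Sav1 KO against Sav1 wt with LIN9 wt. Sptb is at 1.13, and the 7 neighbours tested are between -0.30 and 0.43.

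Haemoglobin counts, which come from red cells, were also higher in the libraries of the LIN9 KO groups. Haemoglobin genes took 0.785% to 1.11% of all counts in LIN9 wt and 3.52% to 8.64% in LIN9 KO of the first experiment. In the second they took 0.422% to 0.544% in the control, 2.13% to 3.75% in LIN9 KO, 0.331% to 0.432% in Sav1 KO and 1.04% to 3.10% in the double knockout. Per 1000 haemoglobin counts, Slc4a1 had 6.72 ± 0.651 counts in the control and 7.32 ± 2.33 in LIN9 KO (mean ± SD, n = 3), and 5.44 ± 0.452 in Sav1 KO and 7.36 ± 2.07 in the double knockout. Klf1 had 0.196 ± 0.0387 and 0.195 ± 0.0747, Gata1 0.148 ± 0.0204 and 0.121 ± 0.0451, Epb42 0.651 ± 0.329 and 0.683 ± 0.236, Rhag 0.169 ± 0.0158 and 0.204 ± 0.0754, Kel 1.63 ± 0.914 and 1.35 ± 0.575, and Ermap 0.737 ± 0.414 and 1.30 ± 0.333 in the control and LIN9 KO. The libraries of these 2 groups overlapped in this ratio for all 7 genes. In the other pairs of groups of the second experiment Epb42, Rhag and Gata1 overlapped and the other 4 in part did not. Slc4a1 had 6.06 to 7.37 in the control, above its 4.93 to 5.80 in Sav1 KO. Klf1 had 0 to 0.0930 in Sav1 KO, below the control (0.162 to 0.238) and LIN9 KO (0.151 to 0.282). Kel had 2.04 to 3.16 in the double knockout, above LIN9 KO (0.970 to 2.01) and Sav1 KO (0.861 to 1.32). Ermap had 1.33 to 1.98 in the double knockout, above the control (0.375 to 1.19) and Sav1 KO (0.465 to 0.713), and LIN9 KO (1.08 to 1.68) was also above Sav1 KO. In the first experiment Rhag had 0.0114 to 0.175 in LIN9 wt and 0.193 to 0.321 in LIN9 KO, and the other 6 genes overlapped. Overlap in this ratio was not taken over all genes, so nothing is read from which genes overlapped and which did not. Sptb had 10.9 ± 1.33 per 1000 haemoglobin counts in the control and 2.34 ± 0.777 in LIN9 KO, without overlap, and 30.0 ± 3.70 in Sav1 KO and 4.83 ± 3.26 in the double knockout. Haemoglobin counts are the divisor, so any gene that rises less than they do falls in this ratio. The mean CPM of Sptb was 50.9 in the control and 65.7 in LIN9 KO. In these bulk samples fewer cells of a type and less RNA per cell cannot be told apart.

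**Figure D5:**
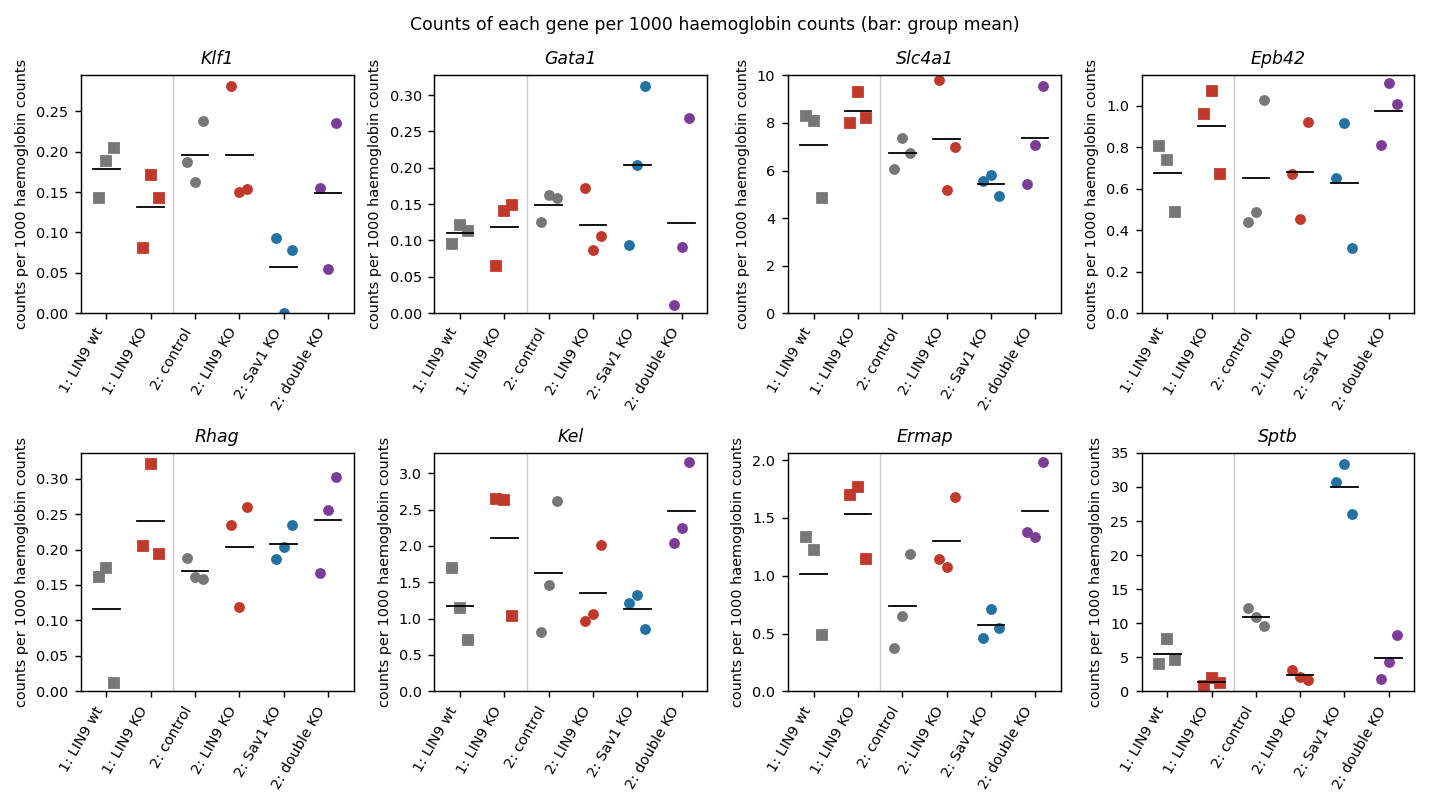
Counts of each gene per 1000 haemoglobin counts of the same library, on linear axes from 0, with points for libraries and a bar at the mean of 3. Control and LIN9 KO libraries of the second experiment overlap for the 7 genes other than Sptb, which has 9.59 to 12.3 in the control and 1.67 to 3.19 in LIN9 KO. Any gene that rises less than the haemoglobin counts falls in this ratio.

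Within a group the order of the libraries was shared by several genes. In LIN9 KO of the first experiment Slc4a1, Epb42, Rhag, Kel and Ermap were highest in replicate 1 and lowest in replicate 3, the order of the haemoglobin share, and the same 5 genes followed the haemoglobin share in the double knockout. In LIN9 KO of the second experiment replicate 3 was highest in haemoglobin share and in all 7 genes, and Kel and Ermap alone of the 8 had the whole order of that share. Sptb followed that order in none of the 3 groups. How many of all genes follow it was not counted, and 3 libraries allow few orders, so nothing is read from these orders.

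Markers of other cells moved as well in LIN9 KO against the control of the second experiment. Of 8 other erythroid markers tested all 8 passed as higher, as did 6 of 8 macrophage markers, 3 of 4 tested of the other leukocytes, 3 of 9 of megakaryocytes and platelets, and 4 of 5 of fibroblasts and cushion cells. Summed, the macrophage markers were at 94.0 to 97.2 CPM in the control and 164 to 191 CPM in LIN9 KO, and the megakaryocyte and platelet markers at 12.3 to 18.8 and 24.6 to 35.4 CPM. Hepatocyte markers summed to 2.05 to 2.66 CPM in the control and 5.91 to 10.5 CPM in LIN9 KO, with 1 of 2 tested passing as higher and Alb, Afp, Fga and Fgb at 0 in both groups. Of the ventricular cardiomyocyte markers 7 of 8 passed as lower, and of the atrial ones 2 of 4 as higher. Of 6 endothelial markers 2 passed as higher and 1 as lower. Skeletal muscle markers, which mark another tissue that makes Sptb, summed to 7.53 to 10.3 CPM in the control and 5.90 to 13.04 CPM in LIN9 KO, and those of neurons to 7.26 to 8.56 and 8.54 to 12.8 CPM, with Tubb3 at 0. Over all genes, 12.7% passed as higher and 10.5% as lower in LIN9 KO against the control. In the double knockout against Sav1 KO, 6 of 8 other erythroid, 7 of 8 macrophage and 4 of 4 other leukocyte markers passed as higher. There 0 of 9 of megakaryocytes and platelets and 5 of 5 of fibroblasts and cushion cells did. In the first experiment these were 7 of 8, 7 of 8, 4 of 5, 5 of 9 and 5 of 5 in the same order. The part of these cells in the differences of the 8 genes was not tested.

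Other genes of the same pathway, from lists that were also put together with earlier results known, were read beside the 8. Of 16 further genes of the erythroid membrane and its skeleton 15 were tested, and 11 passed as higher and 1 as lower in LIN9 KO against the control of the second experiment, beside 12.7% and 10.5% of all genes. Those that passed as higher included Rhd, the Rh antigen carrier, at 1.60 ± 0.35 (edgeR adjusted p = 0.0011). Tmod1, a tropomodulin that caps actin filaments and is also a sarcomere protein, was the 1 that fell, by 0.76 ± 0.09 on the log2 scale (edgeR adjusted p = 7.03e-07). In the double knockout against Sav1 KO 9 passed as higher and 1 as lower, and against the control 8 and 1. The first experiment gave 11 higher and 1 lower, with Rhd (2.92 ± 0.38), Add2, a subunit of the adducin that joins spectrin to actin (2.02 ± 0.36), and Xk, the membrane partner of Kel (1.97 ± 0.48), as the largest of those that passed.

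Of 13 further erythroid regulators 10 were tested in the second experiment, and 5 passed as higher in LIN9 KO against the control. They included Gfi1b, a repressor of the erythroid and megakaryocyte lineages (2.13 ± 0.60, edgeR adjusted p = 0.010), Nfe2, a leucine zipper factor of globin and platelet genes (1.74 ± 0.40, edgeR adjusted p = 0.0018), and Epor, the erythropoietin receptor (1.54 ± 0.27, edgeR adjusted p = 9.32e-05). The same 3 genes had the largest differences of the called regulators in the first experiment (3.25 ± 0.50, 2.72 ± 0.27 and 1.68 ± 0.20), where 6 of 11 passed as higher and 1 as lower. Of the 10, 4 passed as higher in the double knockout against Sav1 KO and 4 against the control. Of the heme and iron genes 4 of 11 passed as higher in LIN9 KO against the control of the second experiment, led by Tspo2, an erythroid membrane protein of the translocator family (3.09 ± 0.63, edgeR adjusted p = 0.00057), Cpox and Slc25a37, which make and feed the heme pathway (0.91 ± 0.13 and 0.72 ± 0.12, edgeR adjusted p = 3.68e-06 and 3.20e-05). The double knockout had 4 passing as higher and 1 as lower against Sav1 KO, and 4 as higher against the control. In the first experiment 6 of 11 passed as higher and 1 as lower, and Tspo2 (2.79 ± 0.28), Slc25a37 (1.16 ± 0.19) and Fech, which puts iron into heme (0.95 ± 0.18), led.

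Of the other red cell enzymes and related proteins 10 of 12 passed as higher in LIN9 KO against LIN9 wt with Sav1 intact in each experiment, with Hemgn, a nuclear protein of erythroid cells (4.19 ± 0.66), Trim58, a ubiquitin ligase of late erythroblasts (3.49 ± 1.01), and Pklr, the red cell pyruvate kinase (3.47 ± 0.70), at the top in the second (edgeR adjusted p = 2.37e-05, 0.012 and 0.00057) and 3.18 ± 0.31, 2.86 ± 0.47 and 3.36 ± 0.51 in the first. The double knockout had 7 of the 12 passing as higher against Sav1 KO, and 7 as higher and 1 as lower against the control. All 9 haemoglobin genes tested passed as higher in LIN9 KO against the control of the second experiment, including Hbq1a (3.40 ± 1.07), Hba-x (3.31 ± 0.26) and Hbb-y (3.29 ± 0.43), with edgeR adjusted p of 0.020, 2.19e-05 and 0.00073, and 8 of 9 passed in the first, including Hbq1b (3.73 ± 0.55) and Hbb-bh1 (3.67 ± 0.58). Of these 9, 8 passed as higher in the double knockout against Sav1 KO and 5 against the control. Some haemoglobin genes are near-identical copies, and their reads are uncertain as to the copy. Among 7 spectrins and ankyrins outside red cells, 1 passed, namely Ank2, the ankyrin of heart muscle, which was lower (-0.61 ± 0.14, edgeR adjusted p = 0.0027) in LIN9 KO of the second experiment, and -0.73 ± 0.14 in the first. Of the 7, 0 passed with edgeR in the double knockout against Sav1 KO or the control, and 1 (Ank2) had an unadjusted p under 0.05 in each, at -0.37 ± 0.14 and -0.30 ± 0.14. Alas2, Abcb10, Zfpm1, Cbfa2t3 and Piezo1, whose exons lie wholly under other genes, had no counts in any library. At most 0.008% of the exon length of any of the 8 genes lies under another gene.

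By likeness of pattern over the 18 libraries, as Pearson's r of log2 CPM less the mean of each experiment among 13170 genes, the 5 genes nearest to the mean of the 7 were Hba-x (0.98), Hbb-y (0.98), Creg1 (0.98), Hbb-bh1 (0.98) and Tbcel (0.98). Hba-x, Hbb-y and Hbb-bh1 are embryonic haemoglobin chains. The differences of Creg1 and Tbcel in LIN9 KO against the control of the second experiment were 1.08 ± 0.12 and 1.24 ± 0.13. Nearest to Sptb were Topbp1 (0.74), Trp53 (0.74), Cdk11b (0.73), Mtap (0.73) and Mcm3ap (0.71), all at a looser likeness. In Sav1 KO against the control these 5 had differences of 0.13 ± 0.09, 0.22 ± 0.12, 0.28 ± 0.14, 0.27 ± 0.11 and 0.18 ± 0.14, against 1.13 for Sptb. The points share groups and depth, so r is a description.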

How the data were processed

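Total RNA of heart ventricles was sequenced in 18 libraries, and the deposited values are whole-number counts per gene. Per the labels and the study's methods, the authors aligned reads to the mouse genome (mm10) with TopHat2 2.1.0 and Bowtie2, drew libraries down to the smallest number of mapped reads, and counted reads per gene. Overlap mode and strand setting are not given in the sources used here. The authors' tables of fold changes and p-values were not used. Rows with 4 repeated identifiers per table were dropped.

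From the counts, genes with a mean count above 1 were fitted with edgeR 4.0.16 (R 4.3.3, TMM, robust quasi-likelihood test, Benjamini-Hochberg adjustment over all genes tested, threshold 0.05), the 6 libraries of the first experiment alone and the 12 of the second in 1 fit. All 8 genes passed the filter, and each but Klf1 in Sav1 KO had a mean count above 1 in every group. Log2 CPM had a prior count of 2. DESeq2 1.42.0 and the other alternatives are under the closing section. The fits were tested on simulated data. Each gene's position comes from GENCODE M21. Genes named from lists were up to 3 per list with the largest difference among those that passed, in each experiment, and some of these are not reported here. The 8 genes and all lists were chosen with earlier results of these data known. The 4 samples of ChIP-seq were left out.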

Additional observations from a re-analysis of the deposited data

How the results depend on the processing

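Counts of the 8 genes that passed the test stayed within 1.5 times under most alternatives, with these exceptions. In LIN9 KO against the control of the second experiment, 4 passed where genes needed a mean count of at least 10, a filter that Klf1, Rhag and Gata1 do not reach and that leaves 5 genes to test. In Sav1 KO against the control, 0 passed with the replicate number as a block where 1 (Sptb) did without it. With no filter on low counts, 2 passed in Sav1 KO against the control, 1 in the double knockout against LIN9 KO, and 1 in the interaction of LIN9 and Sav1, and the cause was not tested. The distance of Sptb from the other 7 in Sav1 KO was 5.79 with a prior count of 0.5 and 5.52 against the median.

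Leaving out 1 library gave 2 to 8 genes in the first experiment, 6 to 7 in LIN9 KO against the control, 7 to 7 in the double knockout against Sav1 KO, 4 to 6 in the double knockout against the control, 0 to 1 in Sav1 KO against the control, 0 to 0 in the double knockout against LIN9 KO, 0 to 1 in the interaction and 0 to 0 in the difference between experiments. In the double knockout against LIN9 KO, the differences ran from -0.22 to 0.82 for Kel, from -0.39 to 0.45 for Epb42, from -0.72 to 0.046 for Rhag, from -0.79 to 0.064 for Ermap, from -1.61 to -0.58 for Klf1, from -1.68 to -0.57 for Gata1, from -0.84 to -0.43 for Slc4a1 and from 0.096 to 0.38 for Sptb, none of them called. The sign turned for Kel without LIN9 KO replicate 1 or 2 or double knockout replicate 1 (-0.22, -0.046 and -0.17), for Epb42 without replicate 3 of either group (0.45 and 0.15), and for Rhag and Ermap without LIN9 KO replicate 3. In Sav1 KO against the control the ranges were -0.66 to 0.040 for Epb42 (above 0 without control replicate 3), -0.22 to 0.19 for Rhag (above 0 without control replicate 1 or Sav1 KO replicate 1 or 2), -0.40 to 0.54 for Gata1 (below 0 without Sav1 KO replicate 3), -1.06 to -0.32 for Kel and -0.87 to -0.14 for Ermap, none of them called.

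Replicate numbers were not treated as pairs, since in no pair of groups were all 3 correlations of same-numbered deviations over 0.1. This rule cannot exclude a partial pairing. The highest such correlation was 0.39, between replicates 1 of the control and LIN9 KO of the second experiment, with 0.089 for replicates 2 and 0.17 for replicates 3. Each LIN9 KO library of the second experiment was nearest to the Sav1 KO library of its own number (0.028 to 0.18). With the replicate number as a block, 8, 7, 7, 7, 0, 0, 0 and 0 genes passed in the comparisons in the order above. Depth limits Klf1, Rhag and Gata1, whose control libraries of the second experiment hold 2 or 3 counts each.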
